A study of Mus musculus with 12 samples.

Results

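Maternal separation together with loss of the glucocorticoid receptor from astrocytes was compared with neither factor, across all genes, in astrocytes purified from the mouse cerebral cortex. The comparison set the 3 libraries titled AGR cKO ESD against the 3 titled Cre- Control, 6 of the 12 libraries in the series, chosen by their titles. Of 45777 genes in the table, 19163 had enough reads to be tested. Separation and receptor loss differ at the same time between these groups, so the comparison gives the size of their joint difference. The other 6 libraries carry a single factor each and are used beside it to show how a difference is reached.

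The glucocorticoid receptor, encoded by Nr3c1, is a hormone-activated transcription factor. Corticosterone, the main stress hormone of rodents, enters the cell and binds the receptor, which then moves to the nucleus and acts at glucocorticoid response elements near its target genes. Astrocytes are the glial cells that take up neurotransmitter, supply cholesterol and other lipids to neurons, shape the matrix around synapses and engulf synapses through receptors such as MERTK. Early separation from the dam is a widely used model of early life stress in rodents.

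Per the labels, all 4 groups carry a floxed Nr3c1 gene, and all received 4-hydroxytamoxifen from postnatal day 5 to 7, the Cre- Control pups included. AGR cKO pups carry in addition Aldh1l1-CreERT2, a recombinase that is active only in the presence of tamoxifen and is driven by the promoter of the astrocyte gene Aldh1l1. No group carries the recombinase without the floxed gene, so effects of the recombinase itself and of receptor loss cannot be told apart. Receptor loss, or the receptor step, names this difference in genotype throughout. Nr3c1 RNA was lower in AGR cKO libraries but not absent, and receptor protein was not measured here. ESD pups were kept from the dam for 3 hours a day from day 1 to 14, and cortices were taken on day 14. Separation therefore began before the 4-hydroxytamoxifen. Astrocytes were isolated by immunopanning and Miltenyi Biotec beads. The genotype entries of the labels count up with the replicate (Nr3c1, Nr3c2, Nr3c3), and the sample titles were followed instead. Which exon is removed is not given in the sources used here. The labels do not say whether the libraries of a group come from separate animals, so the p-values measure the spread between these libraries, which may be in part technical.

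Depth ran from 4.26e+07 to 4.37e+07 counts over the Cre- Control libraries and from 4.43e+07 to 5.21e+07 over those of AGR cKO ESD. Levels are given as CPM, counts scaled to a library total of 1000000, for libraries 1, 2 and 3 in that order, and a log2 fold change is AGR cKO ESD minus Cre- Control with its standard error. A gene is called, or said to have risen or fallen, where edgeR's quasi-likelihood test gave a p under 0.05 after Benjamini-Hochberg adjustment across the 19163 genes. The labelled cell type was checked against its markers: 20 astrocyte markers summed to 37530 to 45169 TPM, a level per transcript length, in Cre- Control and to 39767 to 43205 TPM with both factors. None of these markers was called (4 stood higher and 1 lower at an unadjusted p under 0.05, and DESeq2 called 2 higher and 1 lower), 12 of the 20 had a log2 fold change above 0, and their median was 0.02. Among all genes tested, 7.4% stood higher and 10.3% lower at that p, and DESeq2 called 2.08% higher and 2.86% lower. Neuron markers summed to 289 to 315 TPM and 308 to 329 TPM in the same order of groups. Some other cells had higher sums. Mural cell and fibroblast markers summed to 2250 to 4866 TPM and 1564 to 3330 TPM. Endothelial markers summed to 1140 to 3470 TPM and 1335 to 1726 TPM, and microglia and macrophage markers to 594 to 1832 TPM and 272 to 741 TPM.

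One feature of the preparations moved with the comparison. A score averaged the standardised levels of the microglia and endothelial marker lists. On it, Cre- Control 1 was the highest of all 12 libraries and AGR cKO ESD 1 the lowest. By summed CPM of endothelial markers alone, AGR cKO ESD 1 (1537 CPM) was not the lowest, with Cre- ESD 3 at 1253 CPM. The score was 1.75, -0.47 and 0.36 in Cre- Control 1, 2 and 3, and -1.47, -0.48 and 0.00 in AGR cKO ESD 1, 2 and 3. Medians of gene lists are also given without Cre- Control 1 and AGR cKO ESD 1, called the end libraries, where they turned sign or moved by over 1.5 times.

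**Figure D1:**
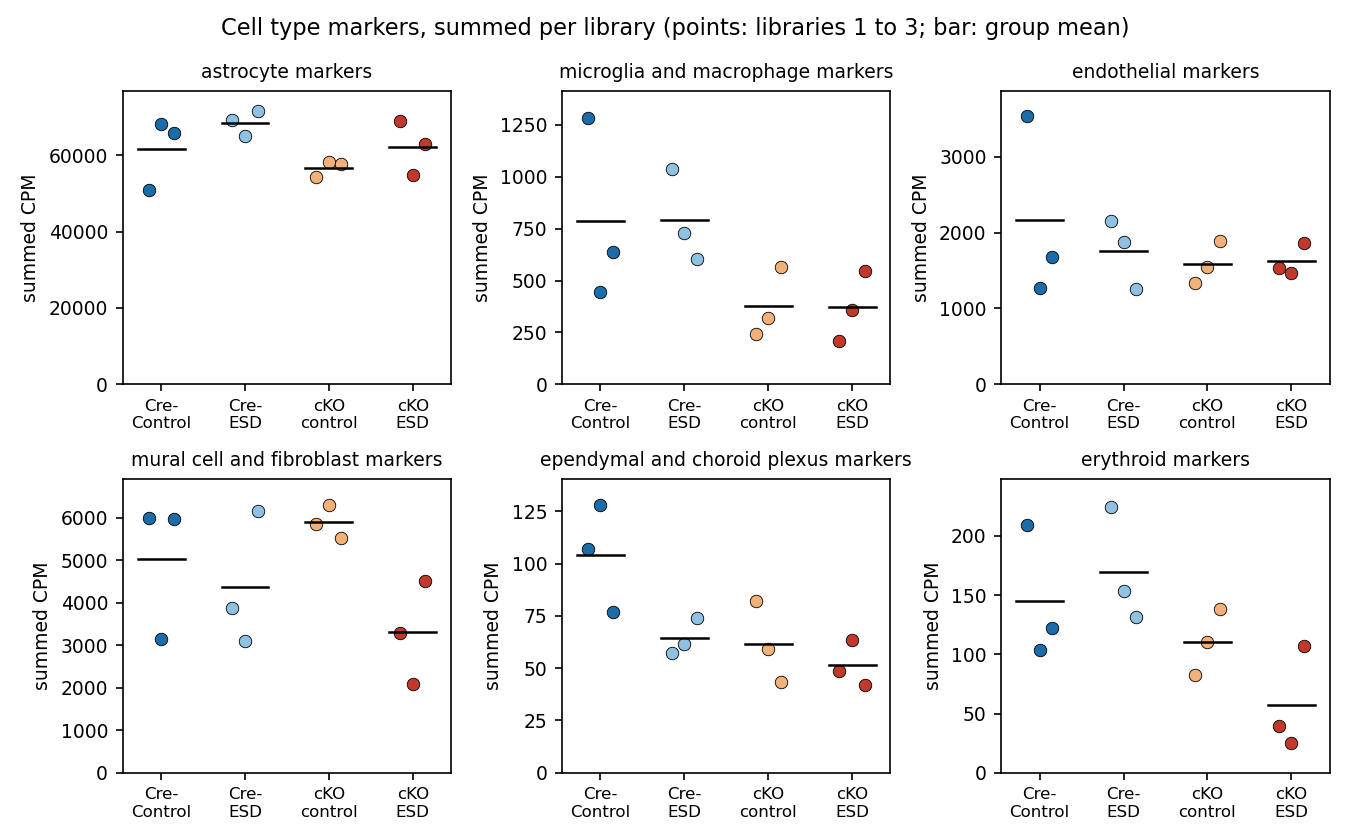
Summed CPM of 6 marker lists (vertical axis) in each library of the 4 groups (horizontal axis), with a bar at the group mean of 3 libraries. Cre- Control 1 is highest for microglia and endothelium (1282 and 3540 CPM), and the ependymal and choroid plexus sum is lower in every AGR cKO ESD library than in every Cre- Control library. That sum is also lower in every Cre- ESD library (57.4 to 73.9 CPM against 76.7 to 128 CPM), and it is 43.3 to 82.1 CPM in AGR cKO control.

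A small set of genes was called. Of 19163 genes, 6 rose and 12 fell, which is 0.0313% and 0.0626% of the genes tested and 0.0939% in all. At an unadjusted p under 0.05, 1418 genes (7.4%) stood higher and 1965 (10.3%) lower. DESeq2, a second count model, called 947 genes (4.94%), 399 higher (2.08%) and 548 lower (2.86%), and these included 17 of the 18. The calls lie close to the threshold: 1 gene, Nr3c1, had an adjusted p under 0.01, the other 17 lay between 0.0429 and 0.0494, and 87 more genes lay between 0.05 and 0.06. Vcan at 0.0494 was the last inside the threshold and Apba1 at 0.0502 the first outside. An edgeR fit of only the 6 libraries compared called 0 genes, with 2357 genes at an unadjusted p under 0.05. Leaving out 1 library at a time left between 1 and 286 calls, and leaving out both end libraries left 3, of which 1 was among the 18.

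Nr3c1 (gene ID 14815, chromosome 18, 39410545 to 39519421), the targeted receptor gene, stood at 214, 210 and 237 CPM in Cre- Control and at 90.5, 66.6 and 95.9 CPM in AGR cKO ESD. The groups did not overlap, and AGR cKO ESD 2 was the lowest of all 12 libraries. Nr3c1 fell by 1.39 ± 0.12 on the log2 scale (edgeR adjusted p 0.00196), and it kept its call in 22 of 23 alternative settings. Most of the difference was there without separation: AGR cKO control libraries stood at 102, 93.2 and 108 CPM. In bulk samples, fewer cells of a type and less RNA per cell cannot be told apart. Nr3c2, the gene of the mineralocorticoid receptor, which binds the same hormone, had a log2 fold change of 0.31 ± 0.12 (edgeR adjusted p 0.212). Of 12 genes for corticosteroid receptors and their chaperones, Nr3c1 was the 1 called.

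**Figure D2:**
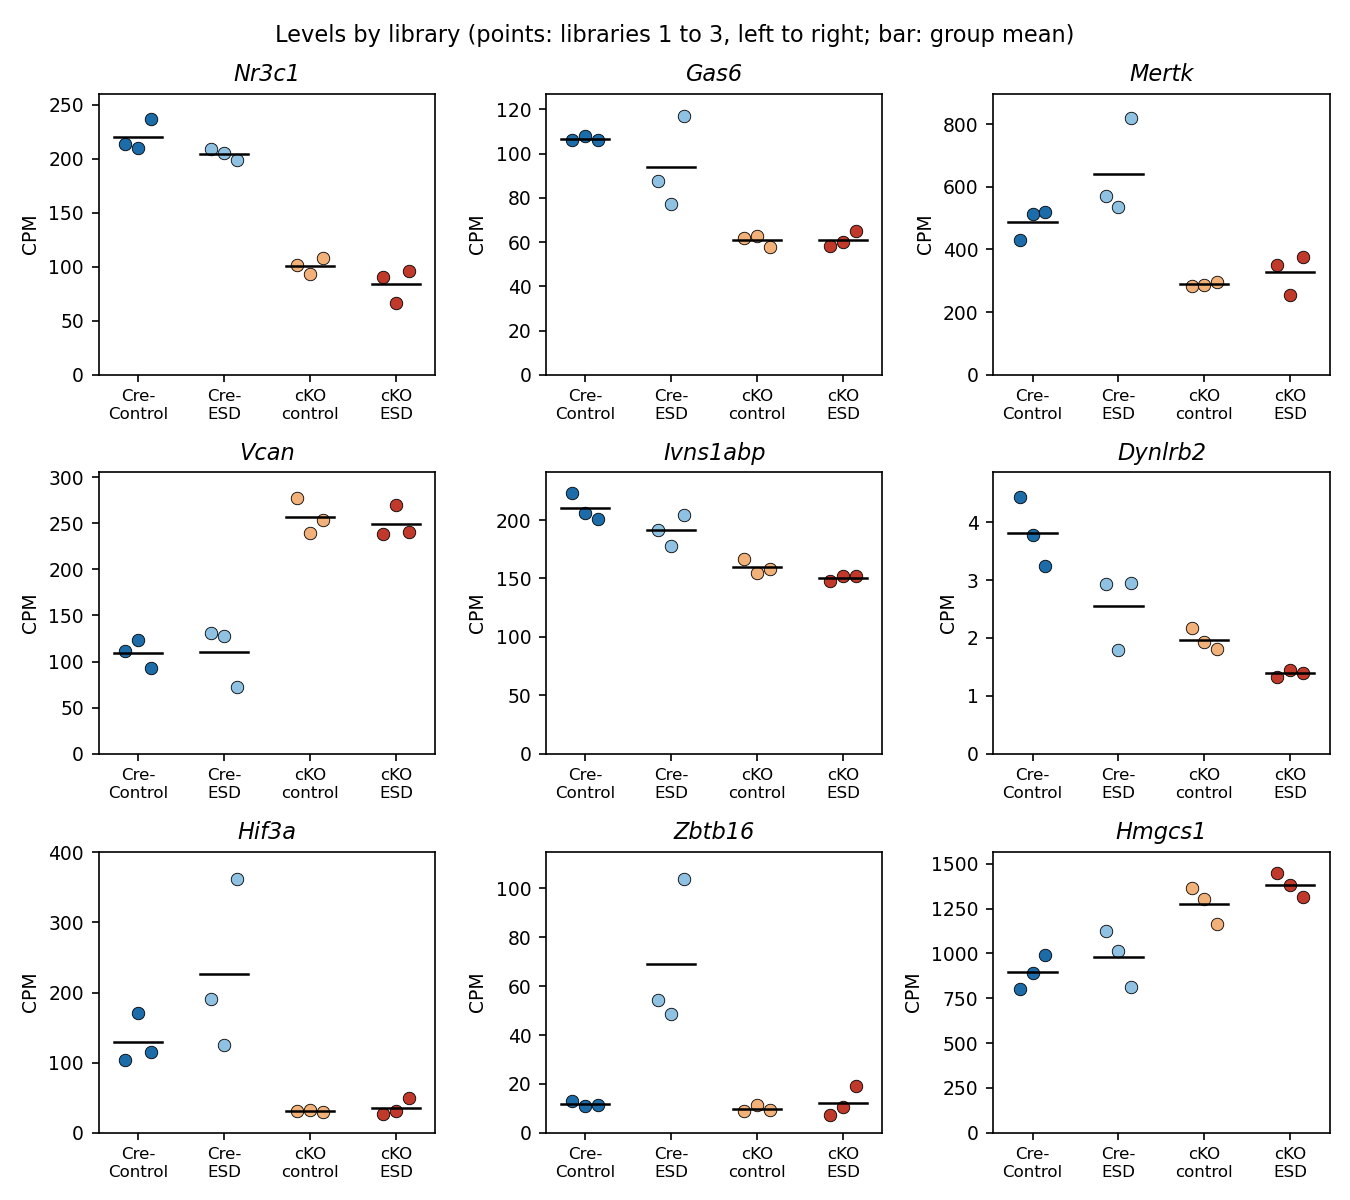
Levels in CPM (vertical axis, from 0) of 9 genes in the 4 groups (horizontal axis), with 1 point per library and a bar at the mean of 3. In Nr3c1, Gas6, Mertk and Vcan the AGR cKO ESD libraries lie near the AGR cKO control libraries, and Zbtb16 is high in the Cre- ESD libraries (48.7 to 104 CPM).

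Gas6 (gene ID 14456, chromosome 8, 13465374 to 13494535), the ligand that bridges phosphatidylserine on dying material to the receptors MERTK, AXL and TYRO3, stood at 106, 108 and 106 CPM in Cre- Control and at 58.1, 60.1 and 64.9 CPM in AGR cKO ESD. The highest AGR cKO ESD library lay far below the lowest Cre- Control library. Gas6 fell by 0.81 ± 0.12 (edgeR adjusted p 0.0429). Its locus overlaps Tmem255b, which had a log2 fold change of -1.51 (edgeR adjusted p 0.091), and reads of overlapping genes cannot be separated where the use of strand in counting is not stated.

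Rarres2 (chromosome 6, 48569696 to 48572845), which encodes the secreted chemoattractant chemerin, stood at 27.1, 28.4 and 23.4 CPM against 13.9, 16.2 and 16.7 CPM and fell by 0.76 ± 0.12 (edgeR adjusted p 0.0429). It is the gene whose difference was shared most evenly between the factors. Its value was -0.38 ± 0.12 for receptor loss without separation and -0.38 ± 0.12 for separation within AGR cKO. Ivns1abp (chromosome 1, 151344486 to 151364445), which encodes an actin-associated protein that binds influenza NS1, stood at 223, 206 and 201 CPM against 148, 152 and 152 CPM. Its fall of 0.48 ± 0.07 (edgeR adjusted p 0.0429) was the smallest among the 18 calls, and the groups did not overlap.

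Low-abundance genes made up the rest of the falls. Gcnt1, a glycosyltransferase that starts branches on O-linked sugar chains, stood at 5.67, 3.54 and 2.72 CPM against 1.04, 0.935 and 0.888 CPM, a fall of 2.05 ± 0.27 (edgeR adjusted p 0.0429). Slc6a19, a transporter of neutral amino acids, fell by 2.23 ± 0.35 (edgeR adjusted p 0.0435) from 2.12, 2.34 and 1.83 CPM to 0.422, 0.497 and 0.41 CPM. Gm3888, a pseudogene on chromosome 15 (92026003 to 92027606), fell by 1.96 ± 0.30 from 2.64, 3.61 and 3.52 CPM to 0.642, 0.796 and 1.07 CPM. It lies next to Cntn1, described with the synapse genes.

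The other low genes that fell include Dynlrb2, a light chain of the dynein motor and 1 of 10 markers listed for ependyma and choroid plexus. Dynlrb2 stood at 4.43, 3.77 and 3.23 CPM against 1.32, 1.45 and 1.39 CPM and fell by 1.46 ± 0.22 (edgeR adjusted p 0.0429). Adgb, which encodes the globin-like protein androglobin, stood at 8.13, 9.21 and 5.3 CPM against 2.43, 2.77 and 2.3 CPM and fell by 1.59 ± 0.24. Zfp474, Tmem232 and Akap14 fell by 1.75 ± 0.27, 1.94 ± 0.30 and 1.86 ± 0.29, and all of their libraries stood under 8 CPM. Akap14 overlaps Nkap and Gm39503, neither of which was called.

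Most other ependymal markers stood lower beside them. Of the 10 ependymal and choroid plexus markers, 1 was called, 9 had a log2 fold change below 0 and 1 above it (1.23). In 8 the level was lower with no overlap between the groups (8.76% of all genes tested did so). The median was -1.24, against -0.01 over all genes tested. At an unadjusted p under 0.05, 8 stood lower (10.3% of all genes), and DESeq2 called 7 lower (2.86% of all genes). Ccdc153, a gene of motile cilia, stood at 22.9, 20.1 and 11 CPM against 5.6, 5.85 and 4.67 CPM, with a log2 fold change of -1.74 ± 0.32 (edgeR adjusted p 0.0525). Foxj1, the transcription factor that drives formation of motile cilia, stood at 46, 60.7 and 38.8 CPM against 27.2, 37.1 and 22.8 CPM (-0.74 ± 0.21, edgeR adjusted p 0.126). Ttr, the defining choroid plexus transcript, was at 0 in Cre- Control 3 and in AGR cKO ESD 1 and 3, and reached at most 1.89 CPM in the 6 libraries. The summed level of the list was 76.7 to 128 CPM in Cre- Control and 42 to 63.3 CPM in AGR cKO ESD. With a single factor it was 57.4 to 73.9 CPM in Cre- ESD and 43.3 to 82.1 CPM in AGR cKO control. The median of the list was -0.96 for receptor loss without separation and -0.57 for separation in Cre- pups, so the lower level was not particular to the joint condition. The part of this list in the falls of Dynlrb2, Adgb, Zfp474, Tmem232 and Akap14 was not tested.

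Among the 6 genes that rose, Vcan had the highest expression. Vcan (gene ID 13003, chromosome 13, 89655309 to 89743027) encodes versican, a large chondroitin sulfate proteoglycan of the extracellular matrix, and stood at 111, 123 and 93.1 CPM against 238, 270 and 240 CPM. Every AGR cKO ESD library was higher than every Cre- Control library. Vcan rose by 1.19 ± 0.19 (edgeR adjusted p 0.0494), and it was called in 7 of 23 alternative settings.

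Dok6 (chromosome 18, 89292423 to 89769540), an adaptor protein that acts below the receptor tyrosine kinase RET, stood at 26.2, 31.6 and 27.4 CPM against 53.5, 45.8 and 44.6 CPM and rose by 0.76 ± 0.12 (edgeR adjusted p 0.0429). Zfp868 (chromosome 8, 69610654 to 69625557), a zinc finger gene, stood at 11.5, 12.1 and 13.7 CPM against 21.5, 22.2 and 23.9 CPM and rose by 0.86 ± 0.12. Its neighbour Nr2c2ap (70131327 to 70133752) rose by 1.05 ± 0.15 from 2.46, 2.48 and 2.62 CPM to 5.1, 5.79 and 4.78 CPM, and overlaps Rfxank. The groups did not overlap in any of these 3 genes.

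The non-coding gene LOC115486910 (chromosome 8, 60719256 to 60725882) rose by 1.65 ± 0.25 from 0.741, 0.75 and 0.937 CPM to 2.21, 2.27 and 3.19 CPM. Gm40469 (chromosome 8, 20549345 to 20552226) had 0 counts in each Cre- Control library and 15, 23 and 10 counts in AGR cKO ESD 1, 2 and 3. Against a floor of 3 counts per library it was at least 4.67-fold higher. The libraries of Cre- ESD and AGR cKO control also had 8 to 17 counts, so Cre- Control alone lacked it.

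The positions of the called genes are given as description, and their placement was not tested. Chromosome 8 held 6 of the 18 (33.3%) and 5.24% of the genes tested. These were Gas6, Gm40469, LOC115486910, Zfp868, Nr2c2ap and Dynlrb2, which lie between 13465374 and 116515915. Zfp868 and Nr2c2ap were the only pair with starts within 1000000 bases, and there was no run of 3. Chromosome 18 held 3 of the 18 (16.7%) and 2.79% of the genes tested, and these were Nr3c1, Zfp474 and Dok6.

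The joint difference is the sum of 2 steps, and for nearly all of the called genes the step of receptor loss was the larger. Going from Cre- Control to AGR cKO control and on to AGR cKO ESD, the first step was larger than the second in 17 of 18 genes. On the other path, by way of Cre- ESD, the genotype step was larger in 16 of 18. These steps share libraries with the joint comparison and are therefore not independent of it. The called genes were also selected on the sum of the steps, and the same counts over all genes tested were not made. On the first path, 10.2% of all genes tested had an edgeR unadjusted p under 0.05 for the genotype step and 7.58% for the separation step. On the other path these shares were 15.6% and 7.19%. Gas6 had -0.81 ± 0.12 for receptor loss and 0.00 ± 0.12 for the separation that followed, Vcan 1.23 ± 0.19 and -0.04 ± 0.19, and Zfp868 0.94 ± 0.12 and -0.08 ± 0.12. Gcnt1 had -1.42 ± 0.26 and -0.63 ± 0.27, and Dynlrb2 -0.95 ± 0.22 and -0.50 ± 0.22. In 13 of 18 genes the separation step within AGR cKO had the same sign as the joint difference.

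**Figure D3:**
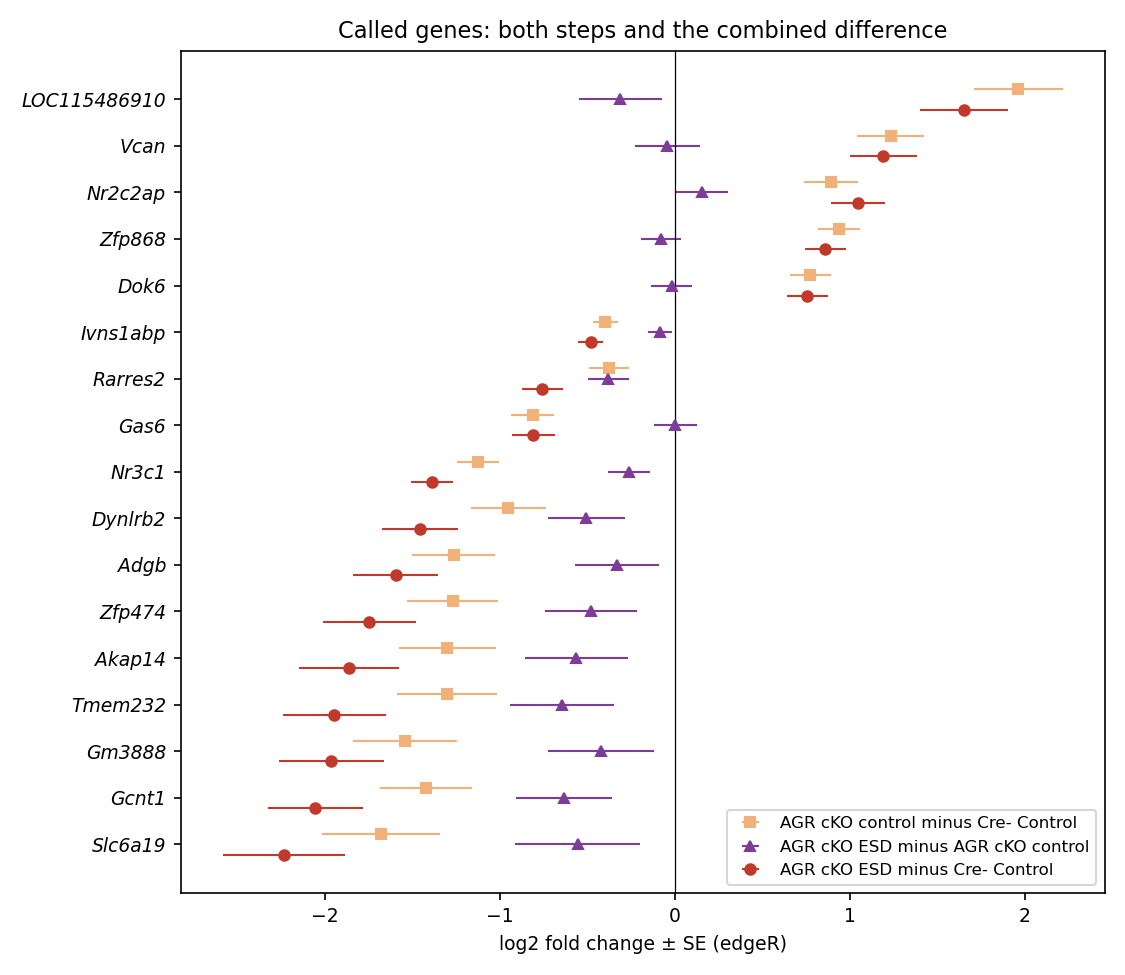
Log2 fold change with its standard error (horizontal axis) for 17 of the 18 called genes (vertical axis, Gm40469 left out because Cre- Control is at 0). Shown are receptor loss without separation, separation within AGR cKO, and their sum. For Gas6 and Vcan the separation step lies at 0.00 and -0.04, while for Rarres2 both steps stand at -0.38.

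Departure from additivity was tested as an interaction. No gene was called (edgeR, 0 of 19163), and 860 genes (4.49%) had an unadjusted p under 0.05. Of the called genes averaging 5 CPM or more, Dok6 had the smallest interaction p, with -0.36 ± 0.16 (edgeR adjusted p 0.999), followed by Gas6 with 0.19 ± 0.17. In the same fit, 3 genes (0.0157%) were called for receptor loss without separation, where 1958 (10.2%) had an unadjusted p under 0.05, and 200 (1.04%) for receptor loss under separation. None was called for separation, with 1378 genes (7.19%) at an unadjusted p under 0.05 in Cre- and 1453 (7.58%) in AGR cKO pups.

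Zbtb16 shows a pattern that the joint comparison alone would miss. It encodes a zinc finger repressor and is a known glucocorticoid target. It stood at 13, 10.8 and 11.3 CPM in Cre- Control and at 7.25, 10.6 and 19 CPM in AGR cKO ESD, and the groups overlapped (0.07 ± 0.34, edgeR adjusted p 0.941). The Cre- ESD libraries stood at 54.5, 48.7 and 104 CPM, above all of the other 9 libraries, and the AGR cKO control libraries at 8.88, 11.3 and 9.21 CPM. The interaction was -2.24 ± 0.48 (edgeR adjusted p 0.98). Fkbp5, which encodes a chaperone that damps receptor signalling, stood at 6.85, 9.53 and 7.17 CPM against 3.35, 5.23 and 6.62 CPM (-0.63 ± 0.72, edgeR adjusted p 0.696), and 1 library of another group, Cre- ESD 3, stood at 103 CPM.

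Glucocorticoid-responsive genes stood lower as a group. Of 25 members, all tested, 22 had a log2 fold change below 0 and 0 were called (edgeR; 13 stood lower at an unadjusted p under 0.05, and DESeq2 called 6 lower). Among all genes tested, 10.3% stood lower at that p and DESeq2 called 2.86% lower. The groups did not overlap in 12 members, all lower, against 8.76% of all genes tested, and the median was -0.63 against -0.01 over all genes. Receptor loss alone gave a median of -0.67, and separation within AGR cKO gave 0.05. Without Cre- Control 1 and AGR cKO ESD 1 the median was -0.52. As with all lists here, the members were chosen with earlier results of these data known. These shares and medians are therefore description and not independent support.

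Hif3a (chromosome 7, 17030993 to 17062427), a member of the hypoxia-inducible factor family, stood at 103, 171 and 115 CPM against 26.5, 31 and 50.2 CPM, with -1.85 ± 0.35 (edgeR adjusted p 0.058). Mfsd2a, a transporter of lysophosphatidylcholine carrying docosahexaenoic acid, stood at 260, 316 and 265 CPM against 88, 93 and 148 CPM, with -1.36 ± 0.30 (edgeR adjusted p 0.0762). In both genes the lowest Cre- Control library was higher than the highest AGR cKO ESD library. Tsc22d3, which encodes the anti-inflammatory leucine zipper GILZ, stood at 137, 156 and 189 CPM against 85.7, 68.5 and 106 CPM (-0.89 ± 0.31, edgeR adjusted p 0.192). Sult1a1, a sulfotransferase, had -1.61 ± 0.46, and Per1, a clock gene induced by glucocorticoids, -0.61 ± 0.19, neither of them called.

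Promoters of this list were searched for the glucocorticoid response element, written as GNACA, any 3 bases and TGTNC, where N is any base, on both strands of the RefSeq promoter table (mouse GRCm38.p6, 250 bases before to 50 after a start site). Of the 25 genes, 22 were matched, with 32 promoters, and 3 of these (9.38%) held the motif, against 0.475% of all 32851 promoters. The 3 genes were Sgk1, Mt1 and Map3k6, and the first 2 are printed, with the motif in capitals, because they are textbook targets. They lie at chr10:21993640-21993939 and chr8:94178839-94179138, both on the plus strand, and the Sgk1 promoter is that of 1 of its start sites.
Sgk1: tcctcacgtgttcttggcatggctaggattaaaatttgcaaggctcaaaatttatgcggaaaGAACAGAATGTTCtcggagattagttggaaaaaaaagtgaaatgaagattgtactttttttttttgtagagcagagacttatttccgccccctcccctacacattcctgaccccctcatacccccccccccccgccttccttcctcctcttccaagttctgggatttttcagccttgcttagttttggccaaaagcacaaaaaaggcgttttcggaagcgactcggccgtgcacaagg
Mt1: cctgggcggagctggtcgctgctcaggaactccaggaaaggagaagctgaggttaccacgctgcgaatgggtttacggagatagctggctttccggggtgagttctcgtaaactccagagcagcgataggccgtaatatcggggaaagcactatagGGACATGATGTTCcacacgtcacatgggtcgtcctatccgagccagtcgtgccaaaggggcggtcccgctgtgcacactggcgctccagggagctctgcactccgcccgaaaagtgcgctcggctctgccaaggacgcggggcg

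A match is a description of these letters and not evidence of binding. Sgk1, a kinase that regulates ion channels, stood at 108, 51 and 74.6 CPM against 31.4, 47.3 and 53.1 CPM, so the groups overlapped (-0.83 ± 0.29, edgeR adjusted p 0.189). With the marker score as a covariate its value was -0.20, and without the 2 libraries at the ends of the score -0.32. Mt1, a metallothionein that binds zinc and copper, stood at 246, 413 and 430 CPM against 232, 203 and 256 CPM (-0.66 ± 0.24, edgeR adjusted p 0.2). Mt2, its neighbour, had -0.63 ± 0.20. Neither the 11 matched promoters of 8 genes that fell nor the 6 of 5 genes that rose held the motif.

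Gas6 was the 1 engulfment gene called. Of 20 members, 1 fell (Gas6) and 0 rose, 9 had a log2 fold change above 0 and the median was -0.04 (-0.08 without the end libraries). At an unadjusted p under 0.05, 2 stood higher and 5 lower, and DESeq2 called 3, all lower. Over all genes tested 0.0939% were called, 7.4% stood higher and 10.3% lower at that p, and DESeq2 called 2.86% lower. Mertk (gene ID 17289, chromosome 2, 128698915 to 128803162), a receptor tyrosine kinase through which astrocytes engulf synapses, stood at 429, 512 and 520 CPM in Cre- Control and at 349, 255 and 376 CPM in AGR cKO ESD. All AGR cKO ESD libraries were lower, with -0.58 ± 0.17 (edgeR adjusted p 0.141, DESeq2 adjusted p 0.0309). The AGR cKO control libraries lay at 284, 285 and 296 CPM, within the range of AGR cKO ESD, and the Cre- ESD libraries at 570, 534 and 818 CPM. The separation step was 0.40 in Cre- and 0.18 ± 0.17 in AGR cKO pups, and their difference was -0.22 ± 0.24 (edgeR adjusted p 0.999), within its error.

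The other receptors of the family had positive values. Axl stood at 365, 435 and 438 CPM against 469, 401 and 436 CPM (0.08 ± 0.09, edgeR adjusted p 0.694), with its sign changing in 3 settings. Tyro3 had 0.30 ± 0.20 (edgeR adjusted p 0.461). Pros1, which encodes protein S, the second bridging ligand, stood at 68.4, 47.5 and 56.7 CPM against 38.6, 39.3 and 44.8 CPM, with no overlap (-0.49 ± 0.12, edgeR adjusted p 0.091). Megf10, an engulfment receptor outside this family, stood at 172, 240 and 206 CPM against 212, 151 and 227 CPM (-0.07 ± 0.16). Elmo2, an adaptor that activates the small GTPase RAC1 during engulfment, had -0.51 ± 0.17, and its partner Dock1 0.19 ± 0.07, neither called.

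Genes of cholesterol synthesis stood higher together, by small amounts. Of 20 enzymes, 18 had a log2 fold change above 0, 16 did not overlap between the groups (all higher, against 9.04% of all genes tested) and the median was 0.31, against -0.01 over all genes. None was called by edgeR (16 stood higher at an unadjusted p under 0.05), and DESeq2 called 13, all higher. The same shares over all genes tested were 7.4% and 2.08%. Receptor loss alone gave a median of 0.25 and separation within AGR cKO 0.11. By way of Cre- ESD, separation in Cre- pups gave -0.06 and receptor loss under separation 0.39. The median was 0.32 with the marker score as a covariate and 0.29 without the 2 libraries at its ends. Without Cre- ESD 3, a library outside the comparison that enters the estimate of the spread, edgeR called 7 of the 20, all higher. That setting gave the most calls of any with 1 library left out, 286 over all genes, where the fewest was 1. Other lists gained calls in it too: 5 glucocorticoid-responsive genes and 3 ependymal and choroid plexus markers, all lower, and 3 matrix genes, all higher.

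Hmgcs1 (chromosome 13, 119690351 to 119708260), which makes the precursor of mevalonate, stood at 803, 892 and 990 CPM against 1447, 1384 and 1313 CPM (0.63 ± 0.12, edgeR adjusted p 0.0598). AGR cKO control, at 1367, 1301 and 1164 CPM, overlapped AGR cKO ESD. Fdps, which makes farnesyl diphosphate, stood at 81.9, 88.1 and 95.9 CPM against 111, 134 and 124 CPM (0.47 ± 0.08, edgeR adjusted p 0.0515). Neither gene overlapped between the groups.

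Other enzymes of the pathway had log2 fold changes of the same sign. Lss, which closes the sterol ring, stood at 135, 147 and 158 CPM against 189, 240 and 201 CPM (0.52 ± 0.10, edgeR adjusted p 0.058). Nsdhl, which acts in removal of methyl groups from the sterol, stood at 95.8, 93.7 and 100 CPM against 119, 114 and 123 CPM (0.30 ± 0.06, edgeR adjusted p 0.0592). Mvk, mevalonate kinase, had 0.54 ± 0.10, Acat2, a thiolase at the start of the pathway, 0.50 ± 0.09 and Tm7sf2, a sterol reductase, 0.57 ± 0.12, none of them called. The exceptions were Msmo1 at -0.07 ± 0.13 and Ebp at -0.05 ± 0.13, both with overlapping groups.

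**Figure D4:**
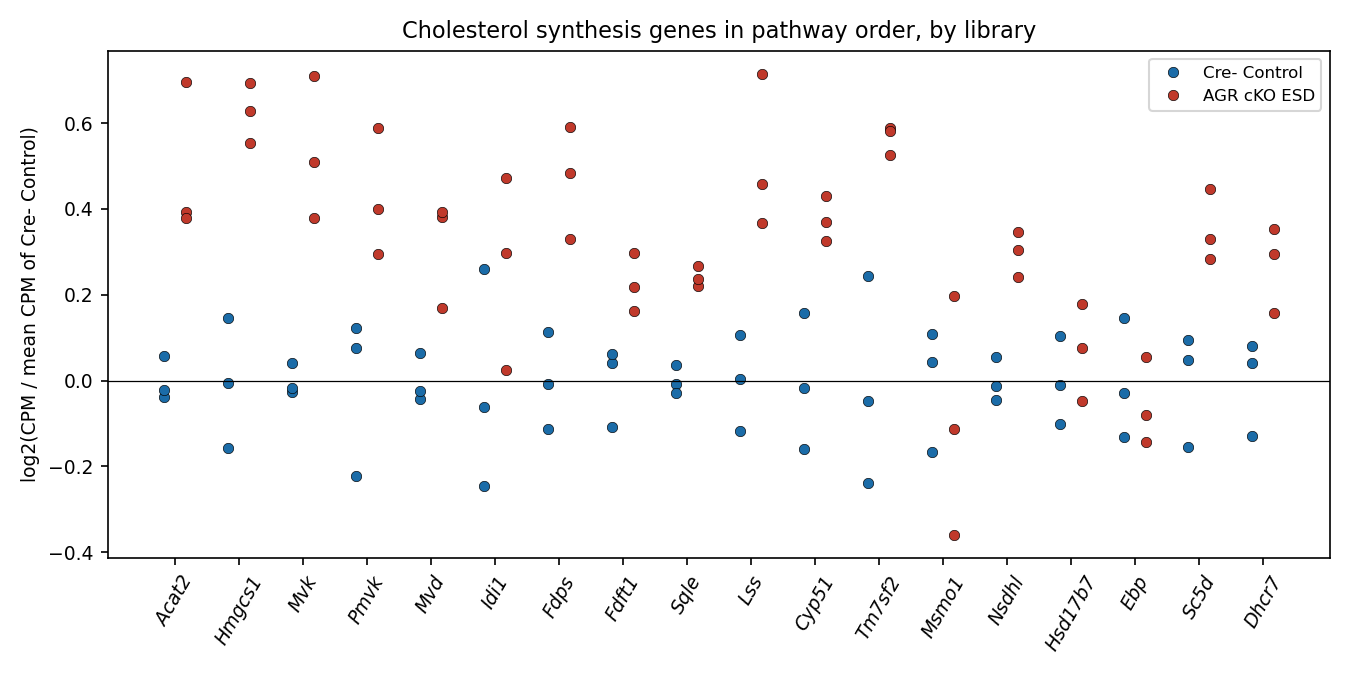
18 of the 20 cholesterol synthesis genes in pathway order (horizontal axis) with log2 of CPM over the mean CPM of Cre- Control (vertical axis), 1 point per library, 3 per group. In 14 of them all 3 AGR cKO ESD libraries lie above all 3 Cre- Control libraries, and Idi1, Msmo1, Hsd17b7 and Ebp overlap.

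The transcription factor SREBP2 acts on these enzymes through sterol regulatory elements, and promoters were searched for 1 form of it, TCACNCCAC, on both strands. Of the 20 genes 15 were matched, with 18 promoters, and 1 promoter (5.56%) held the motif, against 1.24% of all 32851 promoters. It was that of Hmgcs1, at chr13:119690101-119690400 on the plus strand, with the motif in capitals, its first base 137 bases before the start site.
Hmgcs1: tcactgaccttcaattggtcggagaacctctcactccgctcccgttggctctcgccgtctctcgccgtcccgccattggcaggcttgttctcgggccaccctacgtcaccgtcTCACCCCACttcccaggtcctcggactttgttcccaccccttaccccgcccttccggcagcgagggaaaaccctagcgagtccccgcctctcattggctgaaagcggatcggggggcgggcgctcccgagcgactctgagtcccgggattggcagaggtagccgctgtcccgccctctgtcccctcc

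Of 10 genes of SREBP regulation none was called (edgeR; 2 stood higher at an unadjusted p under 0.05, DESeq2 called 0) and the median was 0.15. For this list and those that follow, 7.4% of all genes tested stood higher and 10.3% lower at that p. DESeq2 called 2.08% of all genes higher and 2.86% lower. Srebf2, the gene of SREBP2, had 0.21 ± 0.09 (edgeR adjusted p 0.259) and Scap, which escorts it out of the endoplasmic reticulum, 0.20 ± 0.08 (edgeR adjusted p 0.231). Of 15 genes of fatty acid synthesis, 13 had a log2 fold change above 0, none was called (9 higher and 1 lower at an unadjusted p under 0.05; DESeq2 called 3 higher and 1 lower) and the median was 0.28. Me1, the malic enzyme that supplies NADPH, stood at 116, 164 and 156 CPM against 263, 213 and 220 CPM without overlap (0.67 ± 0.13, edgeR adjusted p 0.058). Acsl3, which activates fatty acids for lipid droplets, had the opposite sign, at 772, 1018 and 839 CPM against 455, 506 and 672 CPM (-0.69 ± 0.19, edgeR adjusted p 0.12). Among 13 genes of lipoproteins and cholesterol efflux, none was called (2 higher and 3 lower at an unadjusted p under 0.05; DESeq2 called 1 each way) and the median was -0.06 (-0.02 without the end libraries). Pltp, a phospholipid transfer protein, had -1.25 ± 0.27 (edgeR adjusted p 0.0762), and Cre- Control 1 at 310 CPM was far above the other Cre- Control libraries at 144 and 140 CPM. Of 16 genes of fatty acid oxidation none was called by edgeR or DESeq2, none had an unadjusted p under 0.05, and the median was 0.08 (-0.03 without the end libraries).

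Genes of the extracellular matrix around synapses had the highest median of the 31 lists. Of 14 members, 1 rose (Vcan), against 0.0313% of all genes tested. The groups did not overlap in 7 that stood higher, against 9.04% of all genes, and in 1 that stood lower (Has3), against 8.76%. At an unadjusted p under 0.05, 7 stood higher, against 7.4% of all genes, and DESeq2 called 5 higher, against 2.08%. The median was 0.59. It was 0.38 without the 2 libraries at the ends of the marker score. Tnc, tenascin-C, stood at 427, 384 and 207 CPM against 771, 859 and 595 CPM (1.13 ± 0.28, edgeR adjusted p 0.091). Ptprz1, a receptor phosphatase that carries chondroitin sulfate, stood at 4620, 5393 and 4526 CPM against 9025, 7826 and 6099 CPM (0.66 ± 0.16, edgeR adjusted p 0.096). Neither gene overlapped between the groups.

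Ncan, neurocan, a lectican like Vcan, stood at 2178, 2079 and 1792 CPM against 3367, 3636 and 2235 CPM (0.61 ± 0.22, edgeR adjusted p 0.2). Has2, a hyaluronan synthase, was low, at 0.654, 0.539 and 0.656 CPM against 3.13, 1.61 and 1.25 CPM (1.69 ± 0.37, edgeR adjusted p 0.0762). By way of AGR cKO control its larger step was that of separation, 1.33 ± 0.36 against 0.36 ± 0.37 for receptor loss, the reverse of Vcan. Has2 was not called, and no gene was called for separation. Cd44, the hyaluronan receptor, stood at 30.3, 24.8 and 23.4 CPM against 40.9, 45 and 36.7 CPM (0.64 ± 0.16, edgeR adjusted p 0.0907).

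Of 24 secreted and adhesion genes that regulate synapses none was called (7 stood higher and 5 lower at an unadjusted p under 0.05, and DESeq2 called 4 higher and 3 lower), with a median of 0.10 (0.03 without the end libraries). Among all genes tested, 7.4% stood higher and 10.3% lower at that p, and DESeq2 called 2.08% higher and 2.86% lower. Cntn1, the adhesion molecule contactin-1, stood at 19.2, 33.8 and 39.7 CPM against 9.98, 14.2 and 11.1 CPM (-1.40 ± 0.24, edgeR adjusted p 0.0515). Cntnap2, an adhesion molecule that pairs with contactins, had the opposite sign, at 14.8, 17.8 and 19.5 CPM against 44.1, 40.3 and 30.3 CPM (1.14 ± 0.19, edgeR adjusted p 0.0515). The groups did not overlap in either gene, and for Cntnap2 the receptor step was 0.59 ± 0.19 and the separation step 0.56 ± 0.19.

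Lgi1, a secreted ligand of ADAM22 at synapses, stood at 13.9, 17.8 and 19.9 CPM against 3.83, 5.85 and 7.19 CPM (-1.61 ± 0.30, edgeR adjusted p 0.055). Sparc, a secreted protein that opposes synapse formation, stood at 1417, 1104 and 1198 CPM against 618, 844 and 748 CPM (-0.75 ± 0.13, edgeR adjusted p 0.0515). Sparc is also abundant in endothelium, and with the marker score as a covariate its value was -0.57. Nlgn2, of the neuroligin family of synaptic adhesion molecules, had 0.30 ± 0.08 and was not called.

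The median of the astrocyte markers, 0.02, was -0.15 without the end libraries. Fabp7, a fatty acid binding protein of radial glia and immature astrocytes, stood at 325, 277 and 243 CPM against 729, 687 and 455 CPM (1.15 ± 0.26, edgeR adjusted p 0.0778). Aqp4, the water channel of astrocyte endfeet, stood at 1916, 1808 and 1424 CPM against 2651, 2592 and 2152 CPM (0.52 ± 0.15, edgeR adjusted p 0.141). Gjb6, the gap junction protein connexin 30, had the opposite sign, at 317, 492 and 452 CPM against 171, 154 and 283 CPM (-1.05 ± 0.32, edgeR adjusted p 0.144). The groups did not overlap in these 3 genes. Aldh1l1, whose promoter drives the recombinase, had 0.33 ± 0.13 (edgeR adjusted p 0.224), and Gfap 0.18 ± 0.18 (edgeR adjusted p 0.656), both with overlapping groups. Of 20 genes for glutamate, GABA and ion buffering none was called (6 higher and 1 lower at an unadjusted p under 0.05; DESeq2 called 1 each way), and the median was 0.08, which turned to -0.10 without the end libraries. The shares over all genes were 7.4% higher and 10.3% lower at that p, and 2.08% and 2.86% by DESeq2.

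All 12 A1-type genes had a log2 fold change below 0, with a median of -0.59 and none called (6 lower at an unadjusted p under 0.05, 0 by DESeq2), and the median was -0.16 without the 2 libraries at the ends of the marker score. Fbln5 was one of them, at 58.9, 11.8 and 11.5 CPM against 12.3, 6.25 and 6.08 CPM, where Cre- Control 1 stood apart from the other 5 libraries. Of 12 A2-type genes none was called (1 higher and 3 lower at an unadjusted p under 0.05; DESeq2 called 1 and 2) and the median was -0.48 (-0.26 without the end libraries). Cd109, a protease inhibitor of the membrane, stood at 12.4, 13.3 and 8.67 CPM against 4.88, 5.37 and 4.1 CPM (-1.26 ± 0.21, edgeR adjusted p 0.0515), and S100a10, an annexin partner, at 8.94, 8.03 and 6.87 CPM against 15, 16.7 and 13.5 CPM (0.92 ± 0.17, edgeR adjusted p 0.0515). Of 13 pan-reactive genes none was called (1 higher and 3 lower at an unadjusted p under 0.05; DESeq2 called 1 and 2), and the median was -0.30 (-0.10 without the end libraries). Beside these 3 lists, 7.4% of all genes tested stood higher and 10.3% lower at that p. DESeq2 called 2.08% of all genes higher and 2.86% lower.

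**Figure D5:**
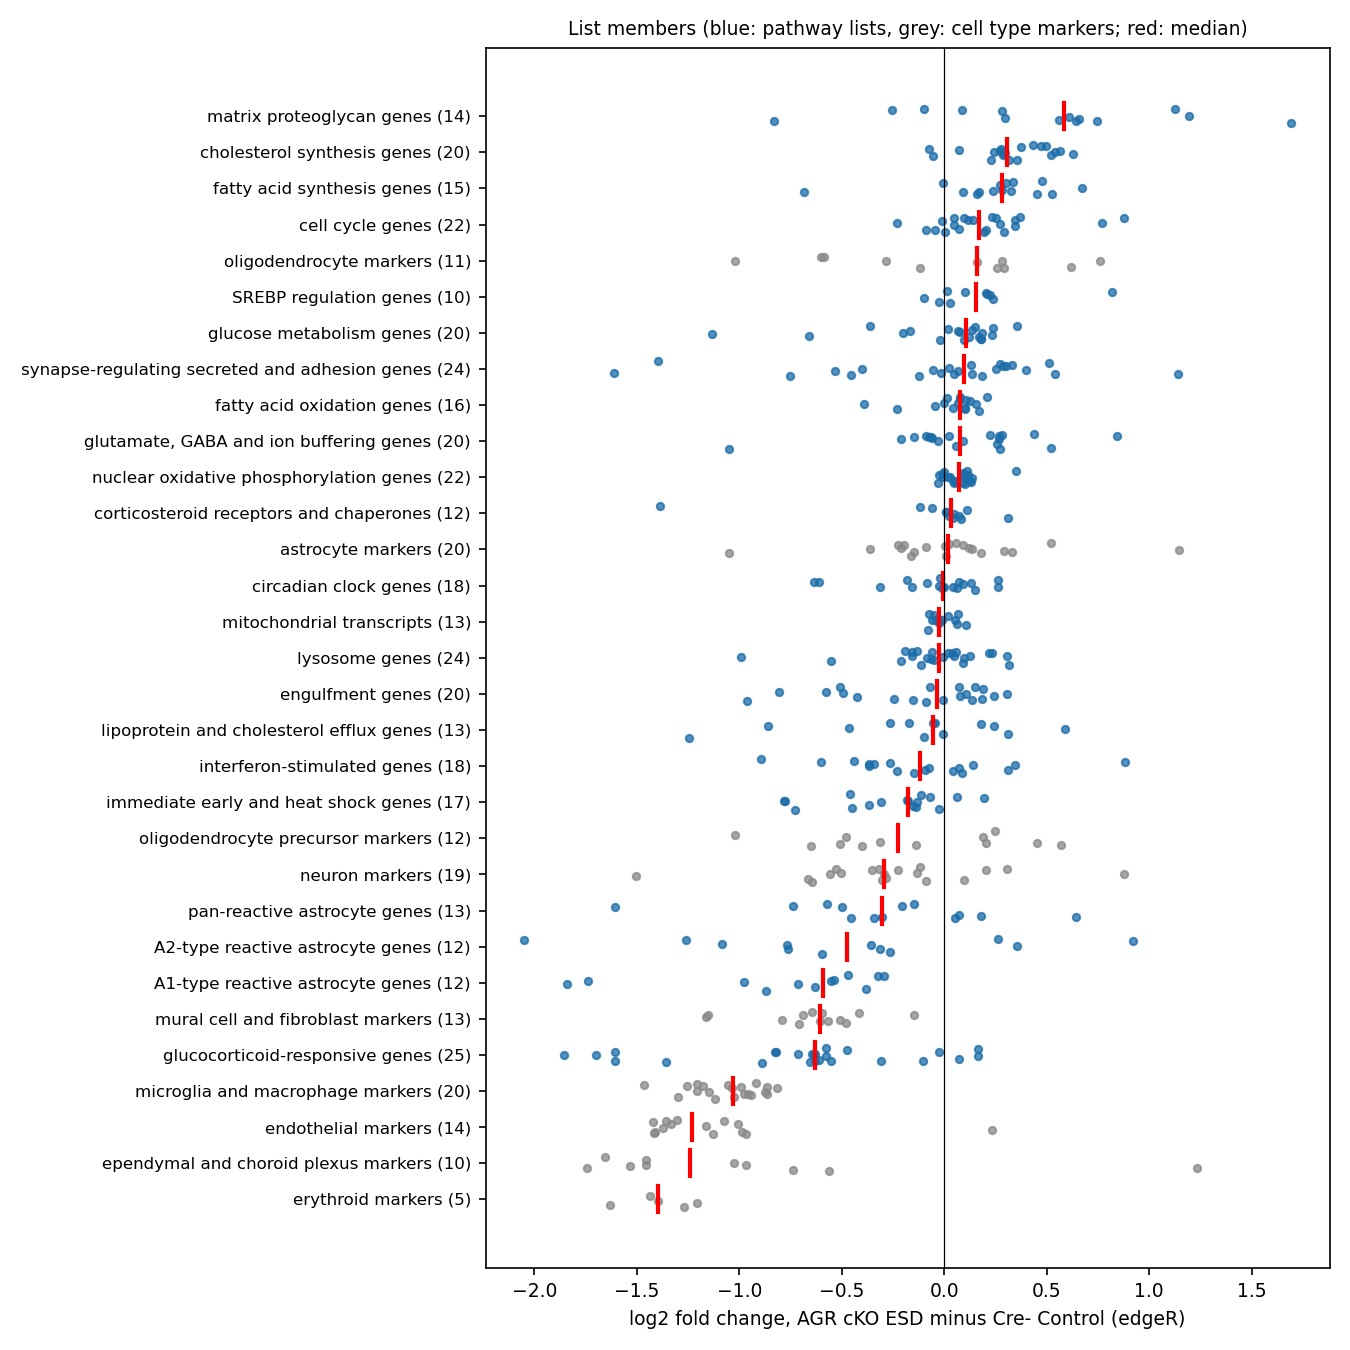
Log2 fold change of every tested member (points, horizontal axis) of 31 lists (vertical axis, number tested in brackets) with the median in red. Matrix and cholesterol synthesis genes have the highest medians (0.59 and 0.31), and markers of microglia, endothelium, ependyma and erythroid cells the lowest (-1.03 to -1.39).

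Of 17 immediate early and heat shock genes, 15 had a log2 fold change below 0, none was called (6 lower at an unadjusted p under 0.05, 2 by DESeq2) and the median was -0.18 (-0.32 without the end libraries). Atf3, a transcription factor of the stress response, stood at 133, 112 and 138 CPM against 62.2, 84.3 and 85.5 CPM without overlap (-0.73 ± 0.13, edgeR adjusted p 0.0515). Of 18 circadian clock genes none was called (2 each way at an unadjusted p under 0.05; DESeq2 called 1 higher and 2 lower) and the median was -0.01 (-0.09 without the end libraries). Among all genes tested, 7.4% stood higher and 10.3% lower at that p, and DESeq2 called 2.08% higher and 2.86% lower. Npas2, a partner of the clock activator, stood at 40, 47.2 and 48 CPM against 29, 23.3 and 34.6 CPM (-0.64 ± 0.15, edgeR adjusted p 0.0864). Cell cycle genes (22, median 0.17), lysosome genes (24, median -0.03), glucose metabolism genes (20, median 0.11), interferon-stimulated genes (18, median -0.12), nuclear oxidative phosphorylation genes (22, median 0.07) and mitochondrial transcripts (13, median -0.02) had no edgeR call. At an unadjusted p under 0.05 they held 1, 4, 3, 0, 1 and 0 genes in that order, and DESeq2 called 1, 1, 1, 0, 0 and 0. Without the end libraries the interferon median turned to 0.24 and the nuclear oxidative phosphorylation median to -0.10, and those of glucose metabolism and mitochondrial transcripts were 0.01 and -0.18. Ccnd2, cyclin D2, stood at 210, 178 and 194 CPM against 425, 305 and 261 CPM (0.77 ± 0.17, edgeR adjusted p 0.0762).

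Of the markers of other cells, Dynlrb2 was the 1 called. Among all genes tested, 17.7% had an unadjusted p under 0.05 (10.3% lower), and DESeq2 called 4.94% (2.86% lower). All 20 microglia and macrophage markers had a log2 fold change below 0, with a median of -1.03 and 0 called (13 at an unadjusted p under 0.05, 0 by DESeq2), and their sum was 444 to 1282 CPM in Cre- Control against 208 to 548 CPM in AGR cKO ESD, so the groups overlapped. The mean sum followed genotype: 788 and 790 CPM in Cre- Control and Cre- ESD, 376 and 371 CPM in AGR cKO control and AGR cKO ESD. Their median was -1.10 for receptor loss without separation and -1.08 under separation. For separation it was 0.03 in Cre- and 0.02 in AGR cKO pups. In these bulk samples the receptor step and this cell content cannot be told apart. Of 14 endothelial markers 13 stood below 0 and none was called (10 at an unadjusted p under 0.05, 0 by DESeq2), with a median of -1.23, and their sum was 1271 to 3540 CPM against 1469 to 1867 CPM. Without Cre- Control 1 and AGR cKO ESD 1 these medians were -0.27 and -0.08. All 13 mural and fibroblast markers (median -0.61) and all 5 erythroid markers (median -1.39) also stood below 0, with 3 and 5 at an unadjusted p under 0.05 and 2 and 1 called by DESeq2. Without the end libraries the erythroid median was -0.75. Neuron markers (19, median -0.30), oligodendrocyte markers (11, median 0.16) and oligodendrocyte precursor markers (12, median -0.23, or -0.05 without the end libraries) had values on both sides of 0, with 3, 2 and 4 at an unadjusted p under 0.05, none called by edgeR, and 1, 0 and 0 called by DESeq2. The part of these cells in the called genes was not tested beyond the marker score: with it as a covariate 4 genes were called, all lower, of which 2 were among the 18.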

How the data were processed

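Messenger RNA (a stranded Illumina kit, per the labels) of purified P14 cortical astrocytes was sequenced in 4 groups of 3 libraries. Per the file headers, the authors deposited whole-number read counts and TPM per gene; no further normalization of the counts is stated. Build mm10 and the tools HISAT2 2.1.0, StringTie 1.3.4b, Bowtie2, Trimmomatic, HISAT and DESeq2 are listed, without roles, in the submitters' processing notes. How counts were derived, and whether strand was used, is not given in the sources used here. The column codes cre_M and cre_P were read as Cre minus and plus.

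Counts were filtered with filterByExpr, scaled with TMM and fitted with 1 mean per group over all 12 libraries (edgeR 4.0.16, R 4.3.3; 8 residual degrees of freedom, common biological coefficient of variation 0.1945). The test was two-sided. DESeq2 1.42.0 and limma 3.58.1 (limma-trend on log2 of deposited TPM plus 1 or 0.1) were alternatives, beside RLE and upper-quartile scaling, other filters and thresholds, a replicate block, a covariate of microglia and endothelial markers, fewer libraries, and each library left out. On simulated counts for this comparison, 55% of 200 genes changed by 1 on the log2 scale were called (18787 genes), and 79.5% of those changed by 2 (18825 genes). Unchanged genes made up 6.78% and 5.36% of the calls. The simulated libraries held no shared shift in cell content, so these shares need not hold for the real libraries. Counts of every pair of libraries within Cre- Control and within AGR cKO ESD differed by more than sampling noise. The smallest exact permutation p for 3 against 3 libraries is 0.1, and tests of single genes therefore come from the model.

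The members, the 31 gene lists (490 symbols, 488 tested, Mog and Opalin not tested) and the tests were chosen with earlier results of these data known. Named genes are calls averaging 5 CPM or more, without overlap or a predicted symbol (up to 15 each way), 13 genes always given, up to 6 called members per list or 2 with the smallest p where none was called, and the 5 such called genes with the smallest interaction p. The other called genes and 28 further list members were named after their values were seen. Some items are not reported here. Coordinates are mm10.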

Additional observations from a re-analysis of the deposited data

How the results depend on the processing

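The number of calls depended strongly on the setting. Against 18, it was 19 with RLE scaling, 3 with upper-quartile scaling, 17 without a low-count filter, 49 with a filter at 1 CPM (22 higher and 27 lower), 947 with DESeq2 (17 of the 18 among them), 19 and 20 with limma-trend on log2 of TPM plus 1 and plus 0.1 (13 and 11 of the 18 among them), 0 with only the 6 libraries compared, 1 at an adjusted p under 0.01 and 402 under 0.1. With the marker score as a covariate it was 4, and without Cre- Control 1 and AGR cKO ESD 1, a setting chosen after seeing the data, 3. Leaving out 1 library gave 1 to 286 calls: 8, 132 and 88 without Cre- Control 1, 2 and 3, 1, 3 and 286 without Cre- ESD 1, 2 and 3, 2, 1 and 2 without AGR cKO control 1, 2 and 3, and 1 without each AGR cKO ESD library. With a replicate block it was 151 (63 higher and 88 lower), but same-numbered libraries of the groups compared did not deviate together in every pair (correlations -0.10, 0.12 and 0.14), so the numbers were not taken to pair them. The causes of these shifts were not tested. The 0 departures from additivity stayed 0 in the scaling, block, covariate and left-out settings. Over 108 genes and 23 settings no called gene changed sign. Signs changed in genes near 0. With the covariate, Axl was -0.0068 and ATP8 -0.086. Without the 2 libraries at the ends of the score, Axl was -0.059, Cox4i1 -0.028 and ATP8 -0.043. Zbtb16 was -0.027 with the replicate block, and -0.037 and -0.063 on TPM plus 1 and plus 0.1. With 1 library left out, Axl ranged from -0.0025 to 0.13, Megf10 from -0.18 to 0.092, Zbtb16 from -0.38 to 0.35, Gfap from -0.063 to 0.33, ATP8 from -0.0036 to 0.28 and ND4 from -0.21 to 0.095. List medians moved by less than the spread between libraries in 491 cases and by more in 36. At 4.26e+07 counts or more per library, genes under 1 CPM rest on the fewest reads.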
